A study of Drosophila melanogaster with 6 samples.

Results

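The Hlc dsRNA 3 libraries were compared with the control libraries across all annotated features of Drosophila melanogaster. The comparison uses 4 of the 6 libraries of the series, taken by their column names: 2 from cells given dsRNA 3 against Hlc and 2 from cells given control dsRNA. All were S2 cells, an established line made from fly embryos, and all were collected 3 days into treatment. The cells carried no engineered allele that the labels name, and both groups received long double-stranded RNA, which S2 cells take up and use to degrade messenger RNA of matching sequence. The control dsRNA matched beta-gal, a bacterial gene that flies lack. The other 2 libraries came from cells given a separate dsRNA, dsRNA 2, against the same gene. Messenger RNA was selected by its poly(A) tail and sequenced. The study's title places the question in the role of Hlc at stress-responsive genes. The sequence of dsRNA 3 and the part of Hlc it matches are not stated by the labels.

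Hlc encodes a DEAD-box protein, an enzyme that uses ATP to unwind or remodel RNA and RNA-protein complexes. Flies answer heat with heat shock factor, which binds heat shock genes whose polymerase is often paused just past the start. They answer bacteria through the Imd and Toll pathways, whose NF-kappaB factors switch on genes for antimicrobial peptides. S2 cells resemble plasmatocytes, the phagocytic blood cells of the fly, and are a standard system for both responses.

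The table held 23882 features, of which 7410 had no count in any of the 6 libraries, and 11293 passed the filter on low counts and were tested. The dsRNA 3 libraries held 57376417 and 84283999 counts, against 64881683 and 77803482 in the control libraries. CPM below is a feature's count set against its library total, with the total adjusted by TMM, a scaling that assumes most genes do not change. The 10 features with most counts took 6.05% and 6.11% of the dsRNA 3 libraries, against 8.84% and 8.64% of the control libraries. On the first principal component, with 73.3% of the variance, both dsRNA 3 libraries lay on the side opposite to both controls. Among features of at least 10 CPM, 21 of 6483 differed by more than 2-fold between the dsRNA 3 libraries and 17 of 6381 between the controls. The design text calls the libraries biological replicates and says nothing of separate cultures. The spread behind the p-values was estimated from all 6 libraries, dsRNA 2 included, and may not cover the spread between separate cultures. In bulk RNA, fewer cells of a type and less RNA per cell cannot be told apart.

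The targeted gene was low in both treated libraries. Hlc (FBgn0001565, chromosome X, 21385518 to 21387946, minus strand, BDGP6.54) stood at 20.02 and 19.2 CPM with dsRNA 3, against 317 and 316 CPM in the controls. The groups did not overlap, and the level was 16.1-fold lower (log2 fold change -4.01, SE 0.10, adjusted p = 1.97e-07 in edgeR's quasi-likelihood test). With dsRNA 2 it stood at 16.1 and 19.7 CPM. Hlc is 1 of 26 tested DEAD-box genes on a list of this family, of which 14 were higher, 7 lower and 5 not called, with a median of 0.36. Its relatives CG32344 (log2 fold change 1.28) and CG7878 (0.99) were higher, and eIF4A, the helicase that opens messenger RNA for the ribosome, was lower (-0.99).

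**Figure D1:**
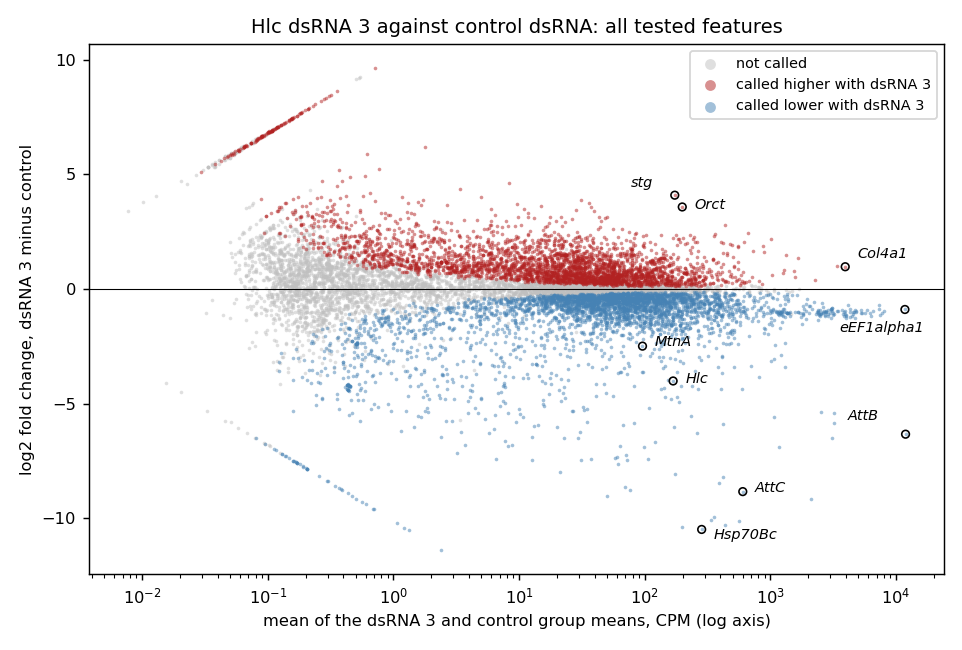
Every tested feature, by its mean level (x, CPM, log axis) and its log2 fold change with dsRNA 3 over control (y), with called features in red (higher) and blue (lower). Hlc lies at -4.01, the points of lowest y over 100 CPM include Hsp70Bc at -10.49, features over 1000 CPM lie mostly below 0, and the straight diagonal edges hold features at 0 in one group, whose fold changes depend on the prior count of the fit.

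Of the 11293 features, 6954 (61.6%) were called at an adjusted p under 0.05. With dsRNA 3, 3380 features (29.9%) were higher and 3574 (31.6%) lower, and these shares are the background for every list below. The median log2 fold change of all features was 0.04. It moved to 0.18 with upper-quartile scaling (3968 higher and 2944 lower) and to 0.62 with library size alone (6080 higher and 1710 lower). Falls smaller than that shift thus depend on the scaling, and so does the size of small rises. The TMM factors were 1.14 and 1.16 with dsRNA 3, against 0.751 and 0.778 in the controls. Past 2-fold, 1626 features (14.4%) were higher and 1501 (13.3%) lower. Past 8-fold, 228 (2.02%) were higher and 383 (3.39%) lower. The features lower past 8-fold held 0.330% and 0.341% of all counts in the dsRNA 3 libraries, against 7.004% and 7.21% in the controls. The features higher past 8-fold held 0.192% and 0.199% with dsRNA 3, against 0.0104% and 0.0117% in the controls.

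The 6 largest falls among named genes over 50 CPM were those of the Hsp70 copies. This rank passes over CG and CR numbers, unnamed noncoding RNAs and element copies, and needs groups that lie apart. All 6 Hsp70 copies of the list fell, with log2 fold changes between -9.95 for Hsp70Ab and -10.49 for Hsp70Bc. Hsp70Bc, an inducible chaperone that refolds damaged proteins, had 0.413 and 0.378 CPM with dsRNA 3, against 581 and 553 CPM in the controls (adjusted p = 1.08e-08). The copies are nearly identical in sequence, and how reads were split between them is uncertain, while every copy had at most 1.03 CPM with dsRNA 3 and at least 376 CPM in the controls. Hsp26, a small heat shock protein that holds unfolded proteins, had 1.93 and 2.41 CPM with dsRNA 3, against 767 and 775 CPM in the controls (-8.45, SE 0.10). Of the 19 heat shock genes tested, 18 were lower and 0 higher, with a median of -6.01. Only Hsp67Ba did not pass the test (-1.496). The other lower members included Hsp22 (-6.91), Hsp23 (-6.01), Hsp27 (-4.95), the co-chaperone stv (-4.74), Hsp68 (-4.24), heat shock factor itself, Hsf (-1.95), the Hsp40 gene DnaJ-1 (-1.82), Hsp83, the fly Hsp90 (-1.08), and the mitochondrial chaperonin Hsp60A (-1.004). Members of a list named here beyond the 3 with the smallest p were chosen after their values were seen.

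Chaperones that work without stress moved less. Of 17, 10 were lower, 1 higher and 6 not called, and their median of -0.45 turned to 0.15 with library size alone (7 higher and 5 lower). Hsc70-4, the main constitutive Hsp70 relative, had 2566 and 2571 CPM with dsRNA 3, against 6071 and 5947 CPM in the controls (-1.23, SE 0.06). Hsc70Cb, a nucleotide exchange factor for Hsp70 proteins, was higher (0.45). The endoplasmic reticulum form Hsc70-3 was at 0.10 and not called. On the list for the unfolded protein and integrated stress response 10 of 20 were lower and 2 higher, with a median of -0.23 that turned to 0.36 with library size alone (10 higher and 6 lower). Thor, which binds eIF4E and restrains translation, had 198 and 249 CPM with dsRNA 3, against 2258 and 2484 CPM in the controls (-3.41). PPP1R15, a phosphatase subunit that reverses the block on initiation factor eIF2, was lower as well (-1.52), and so was the pseudokinase trbl (-1.84).

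Genes for antimicrobial peptides fell too. Of 15 tested, 14 were lower, 0 higher and 1 not called, with a median of -6.24. AttB, an attacin active against Gram-negative bacteria, had the most counts of any feature in the controls, with 300 and 283 CPM with dsRNA 3, against 23687 and 23300 CPM in the controls (-6.33, SE 0.08, adjusted p = 1.21e-08). AttA and AttB are close copies, so their split is uncertain. AttC had 2.72 and 2.54 CPM with dsRNA 3, against 1240 and 1164 CPM in the controls (-8.84). AttD had 9.19 and 5.32 CPM with dsRNA 3, against 4228 and 4101 CPM in the controls (-9.18). In each of these genes the groups lay far apart. Metchnikowin, Mtk (-7.33), the diptericins DptB (-6.89) and DptA (-6.84), Drs, the antifungal drosomycin (-5.87), and Dro (-5.57) were lower too. CecC was at -0.06 and not called. Summed, the 15 genes averaged 756 CPM with dsRNA 3, against 52198 CPM in the controls; this sum is of counts and does not correct for gene length.

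Components of the Imd and Toll pathways were mostly lower: 21 of 28, with 4 higher and a median of -1.14. With library size alone 17 were lower and 8 higher (median -0.55). PGRP-SC2, a secreted amidase that cuts peptidoglycan, is not on this list. It had 0.367 and 0.337 CPM with dsRNA 3, against 155 and 149 CPM in the controls (-8.76). PGRP-LB, also an amidase, had 6.09 and 5.58 CPM with dsRNA 3, against 210 and 214 CPM in the controls (-5.19). The Imd inhibitor pirk (-4.37), the recognition protein PGRP-SD (-3.42) and Rel, the NF-kappaB factor of the Imd pathway (-3.05), fell in the same libraries. Changes reached the receptor PGRP-LC (-1.20), the adaptor imd (-1.18), the kinase pll (-1.65), the Toll pathway inhibitor cact (-1.27) and the factor dl (-1.39). The members that were higher were spz, the Toll ligand (2.03), the NF-kappaB factor Dif (0.70), the kinase IKKbeta (0.34) and the adaptor tub (0.31). The protease gene spirit, which acts above Toll, had 8 and 19 counts with dsRNA 3, against 2124 and 2438 counts in the controls. IM18 had 4 and 8 counts with dsRNA 3, against 574 and 848 in the controls, and all of its exonic bases are shared with another annotated gene, so its reads are uncertain.

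The JAK-STAT, JNK and apoptosis lists held changes in both directions. On the JAK-STAT list 8 of 14 were lower and 3 higher, with a median of -0.95; with library size alone 6 were lower and 5 higher (median -0.36). Socs36E, a feedback inhibitor that the pathway induces, had 99.6 and 116 CPM with dsRNA 3, against 1549 and 1496 CPM in the controls (-3.82). The complement-like Tep4 (-1.53) and the phosphatase Ptp61F (-1.04) were lower, whereas the receptor dome (0.50) and the transcription factor Stat92E (0.94) were higher. On the JNK list 9 of 15 were lower and 4 higher, with a median of -0.30 that turned to 0.29 with library size alone (8 higher and 5 lower). Gadd45, a stress-responsive activator of the kinase cascade, had 36.3 and 39.0 CPM with dsRNA 3, against 316 and 300 CPM in the controls (-3.03). The JNK phosphatase puc (-1.53) was lower and the TNF receptor wgn (1.45) higher. On the apoptosis list 8 of 15 were lower and 1 higher, with a median of -0.79. That median was -0.29 without control replicate 2, -0.37 with limma-voom and with the replicate block, and -0.20 with library size alone, where 6 were higher and 5 lower. The death gene rpr had 4.62 and 5.40 CPM with dsRNA 3, against 90.4 and 87.8 CPM in the controls (-4.15). The Bcl-2 family gene Debcl (-1.76) and the caspase inhibitor Diap2 (-1.31) were lower as well. The caspase gene Damm had 23 and 25 counts with dsRNA 3 and 0 counts in both controls.

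**Figure D2:**
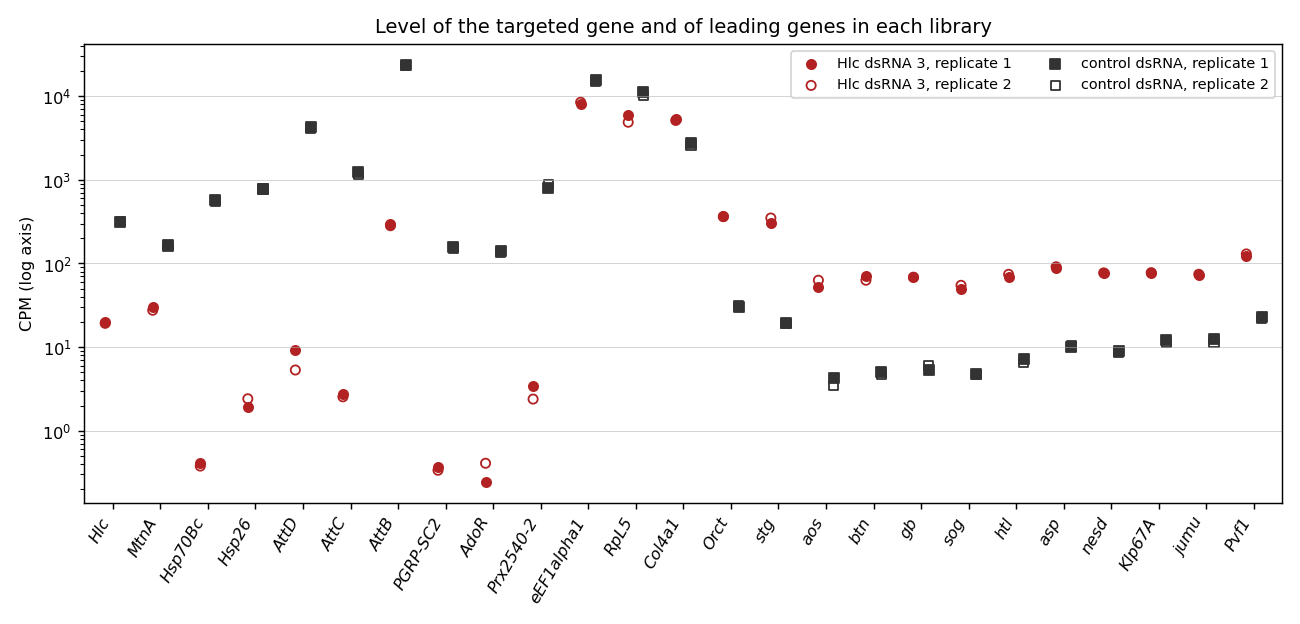
CPM (log axis) in each of the 2 dsRNA 3 libraries (red circles) and 2 control libraries (dark squares) for Hlc, MtnA and genes with large changes or high levels. Groups separate at every gene shown, for example Orct at 371 and 363 CPM with dsRNA 3 against 29.8 and 31.5 CPM in the controls. Genes chosen for the largest changes had to have groups that lie apart. Replicates mostly lie close to each other, less so for AttD, at 9.19 and 5.32 CPM with dsRNA 3.

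Genes for metal handling and redox defence were lower. MtnA, a metallothionein that binds copper and zinc, had 30.4 and 27.6 CPM with dsRNA 3, against 166 and 159 CPM in the controls (-2.49, SE 0.11, adjusted p = 1.83e-06). Of 10 metal response genes 7 were lower and 1 higher, with a median of -1.38. The zinc transporter ZnT63C (-2.42), the copper pump ATP7 (-2.11) and the divalent metal transporter Mvl (-1.58) were among the lower ones, and the copper importer Ctr1A was the higher one (0.50). Of 28 redox genes 22 were lower and 1 higher, with a median of -1.10. With library size alone 15 of the redox genes were lower and 8 higher (median -0.51). Prx2540-1 (-8.09) and Prx2540-2 (-8.20), peroxiredoxins that remove peroxides, are close copies, and Prx2540-2 is not on the list. Prx2540-2 had 3.43 and 2.39 CPM with dsRNA 3, against 790 and 888 CPM in the controls. The glutathione transferase gene GstE9 had 56.6 and 54.0 CPM with dsRNA 3, against 1173 and 1106 CPM in the controls (-4.37). GstE11 fell with it (-3.71), and so did Keap1, the inhibitor of the antioxidant factor cnc (-2.94). The superoxide dismutases Sod1 and Sod2 were at 0.00 and 0.02 and were not called.

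Glycolysis followed. Of 20 genes on a list of glycolysis and hypoxia 16 were lower and 2 higher, with a median of -0.89. With library size alone 12 were lower and 6 higher (median -0.30). Ldh, lactate dehydrogenase, had 106 and 116 CPM with dsRNA 3, against 6196 and 6370 CPM in the controls (-5.83, SE 0.09). Hexokinase, Hex-A (-2.16), and triose phosphate isomerase, Tpi (-1.88), fell less. The hypoxia factor sima (-0.82) and Hph, the hydroxylase that marks it for destruction (-1.84), were also lower. On the autophagy and lysosome list 26 of 36 were lower and 6 higher, with a median of -0.53 that turned to 0.06 with library size alone (12 higher and 11 lower). Its strongest members by test were the autophagy receptor ref(2)P (-1.81) and the proton pump subunits VhaAC39-1 (-0.97) and Vha100-1 (-0.77). Proteasome subunits were lower in 27 of 34 cases and higher in 2, led by Rpn13 (-0.94) and Rpn6 (-0.72), with a median of -0.40 that turned to 0.19 with library size alone (18 higher and 2 lower). Rab GTPases, which direct vesicles, were lower in 23 of 29 cases and higher in 3, and the median of -0.55 turned to 0.04 with library size alone (6 higher and 5 lower). Among them RabX1 had 36.8 and 38.2 CPM with dsRNA 3, against 750 and 793 CPM in the controls (-4.36).

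The translation apparatus was lower across its parts. Of 87 cytosolic ribosomal protein genes 83 were lower, 1 was higher and 3 were not called, with a median of -1.01. RpL5 had 5923 and 4881 CPM with dsRNA 3, against 11122 and 10114 CPM in the controls (-0.98). RpL28 had 2591 and 2822 CPM with dsRNA 3, against 6333 and 6077 CPM in the controls (-1.20, SE 0.07). Summed over the list, counts came to 177042 CPM with dsRNA 3, against 360958 CPM in the controls. With library size alone the median was -0.42 and 78 were lower. The exceptions were RpS15Ab (0.22, higher) and RpS5b, RpS10a and RpS19b, copies read at low level, which were not called. Of 25 translation factors 20 were lower and 3 higher, with a median of -0.84. With library size alone 14 of them were lower and 7 higher (median -0.25). eEF1alpha1, which brings transfer RNA to the ribosome, had 8006 and 8452 CPM with dsRNA 3, against 15414 and 15143 CPM in the controls (-0.89). The initiation factors eIF3c (-1.17) and eIF2Bepsilon (-1.47) and the termination factor eRF1 (-1.08) were lower too. Of 20 aminoacyl-tRNA synthetases, which load transfer RNA, 17 were lower, 0 higher and 3 not called, with a median of -1.13. For these, library size alone gave 13 lower and 4 higher (median -0.54). CysRS had 69.3 and 65.4 CPM with dsRNA 3, against 264 and 266 CPM in the controls (-1.98), and AspRS (-1.94) and TrpRS (-1.75) came close.

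Most genes that make ribosomes moved the other way. Of 40 genes for RNA polymerase I and ribosome biogenesis 33 were higher and 4 lower, with a median of 0.69. Their sum did not rise: counts over the list came to 4779 CPM with dsRNA 3, against 5324 CPM in the controls. RpI135, a core subunit of polymerase I, had 51.99 and 51.3 CPM with dsRNA 3, against 16.9 and 15.6 CPM in the controls (1.67, SE 0.07). CG13185 was higher (2.00). The listed gene bor was lower (-1.56), and whether it acts in making ribosomes was not checked. Of 75 mitochondrial ribosomal proteins 17 were higher and 27 lower; their median of -0.08 turned to 0.51 with library size alone (54 higher and 3 lower), and was 0.031 without dsRNA 3 replicate 2, 0.034 without control replicate 1, -0.15 without dsRNA 3 replicate 1 and -0.13 without control replicate 2. The respiratory chain subunits encoded in the nucleus had 7 of 74 higher and 19 lower, and the median of -0.12 turned to 0.47 with library size alone (56 higher and 1 lower), and was -0.20 without dsRNA 3 replicate 1, -0.018 without dsRNA 3 replicate 2 and -0.059 without control replicate 1. UQCR-C1, a core subunit of complex III, was the strongest by test (-1.25).

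Most cell cycle genes rose. Of 36 genes for mitosis 32 were higher and 2 lower, with a median of 1.37. stg, the Cdc25 phosphatase that starts mitosis, had 305 and 349 CPM with dsRNA 3, against 19.2 and 19.2 CPM in the controls, a 17.1-fold rise (4.09, SE 0.08, adjusted p = 9.09e-08). scra, the anillin of the cleavage furrow, had 290 and 299 CPM with dsRNA 3, against 59.3 and 57.1 CPM in the controls (2.34). pav, a kinesin of the central spindle, had 169 and 170 CPM with dsRNA 3, against 32.5 and 33.8 CPM in the controls (2.35). asp, which focuses spindle poles (3.14), nesd, which acts in cytokinesis (3.14), aurA (2.37), aurB (2.13), polo (1.52), CycB (1.49) and Cdk1 (1.42) were higher, whereas the checkpoint kinase Bub1 (-0.55) was among the lower ones; the fall of Bub1 is smaller than the shift with library size alone. The lowest member of the mitosis list was at -1.09, and with library size alone 1 member was lower and 34 higher. Kinesin motors were higher in 13 of 18 cases and lower in 4, with a median of 0.69. Klp67A, which shortens spindle microtubules, had 76.0 and 77.6 CPM with dsRNA 3, against 12.2 and 11.4 CPM in the controls (2.71). The transport kinesins Klp98A (-1.36) and Klp68D (-0.86) were lower.

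DNA replication showed the same pattern, with 33 of 37 genes higher, 1 lower and a median of 1.31. Mcm6, a subunit of the replicative helicase, had 154 and 167 CPM with dsRNA 3, against 31.2 and 32.9 CPM in the controls (2.33). The licensing factor dup (2.16), Mcm2 (1.78), Cdk2 (2.88), CycE (2.11) and the GINS subunit Sld5 (3.02) were higher. CycD was the lower one (-0.51), a fall smaller than the shift with library size alone. On the DNA repair list 14 of 26 were higher and 4 lower, with a median of 0.38. The mismatch repair gene Msh6 had 61.7 and 61.9 CPM with dsRNA 3, against 11.6 and 12.2 CPM in the controls (2.38). Fancd2, of the crosslink repair pathway, rose similarly (2.37), and Irbp, a Ku subunit that binds broken ends, was lower (-1.40).

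Chromatin and nuclear structure genes tended upward. Of 29 chromatin remodelling genes 23 were higher and 3 lower, with a median of 0.71. Acf, a nucleosome spacing factor, had 106 and 103 CPM with dsRNA 3, against 24.6 and 26.8 CPM in the controls (2.02). Chd3 (1.53) and the ATPase dom (1.10) were higher. Of 29 nuclear pore genes 21 were higher and 6 lower, with a median of 0.38, led by Gp210 (1.70) and followed by Nup133 and Nup154 (1.08 each). On the Polycomb and trithorax list 14 of 26 were higher and 7 lower, and a median of 0.23; the strongest by test were Jarid2 (1.27) and Sfmbt (0.86). Of 28 genes of small RNA pathways 15 were higher and 7 lower, with a median of 0.28. pasha, the partner of Drosha in microRNA processing, had 26.3 and 26.3 CPM with dsRNA 3, against 4.37 and 4.50 CPM in the controls (2.57). piwi, which silences transposable elements in the gonad, had 16.2 and 15.5 CPM with dsRNA 3, against 3.43 and 2.89 CPM in the controls (2.33). AGO2, the endonuclease that dsRNA knockdown relies on, was lower by a small amount (-0.28), less than the shift with library size alone. Splicing factors had 16 of 36 higher and 8 lower, a median of 0.14 (0.27 without control replicate 1), and x16 as the largest rise (1.15).

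With TMM scaling the transcription machinery showed mixed, small changes. Of 38 genes for RNA polymerase II and general factors 8 were higher, 15 lower and 15 not called. Their median of -0.14 turned to 0.01 with upper-quartile scaling and 0.45 with library size alone (24 higher and 5 lower), and was -0.064 without dsRNA 3 replicate 2. The largest subunit, RpII215, was at -0.13 and not called. Taf6, a TFIID subunit, was lower (-1.30). Of 23 pausing and elongation factors 11 were higher and 8 lower, with a median of 0.08. This median was 0.14 without dsRNA 3 replicate 1 and 0.045 without dsRNA 3 replicate 2. With library size alone it was 0.67, with 18 higher and 2 lower. Cdk9, the kinase that releases paused polymerase, had 24.7 and 27.4 CPM with dsRNA 3, against 69.3 and 71.3 CPM in the controls (-1.43), and its partner in the super elongation complex, Su(Tpl), was lower as well (-1.48). Larp7 (1.19) and Hexim (0.81), which hold that kinase inactive, were higher. So was NELF-B, of the pausing factor NELF, which averaged 26.4 CPM with dsRNA 3, against 13.2 CPM in the controls, whereas Nelf-A was at -0.54, a fall smaller than the shift with library size alone. Integrator subunits had 5 of 14 higher and 4 lower, with a median of 0.05. This median was 0.0098 without dsRNA 3 replicate 2 and 0.10 without control replicate 2. With library size alone it was 0.64, with 12 higher and 1 lower.

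Growth factor signalling had both directions. Of 22 genes of the EGF receptor pathway 11 were higher and 5 lower, with a median of 0.49. The median was 0.78 without control replicate 2, and with library size alone 17 were higher and 1 lower (median 1.08). aos, a secreted inhibitor of the receptor that the pathway induces, had 52.4 and 63.0 CPM with dsRNA 3, against 4.33 and 3.49 CPM in the controls (3.89). sty, the intracellular inhibitor sprouty, had 374 and 391.8 CPM with dsRNA 3, against 82.3 and 69.5 CPM in the controls (2.34). The phosphatases Ptp10D (1.91) and Mkp3 (1.92) were higher, and the adaptor drk lower (-0.87). Ranks in this paragraph also pass over CG and CR numbers, unnamed noncoding RNAs and element copies. Among genes outside the lists, the FGF receptor htl (3.38), the BMP-binding protein sog (3.46), the homeobox gene btn (3.77), the glutamate transporter gb (3.58), the forkhead gene jumu (2.62) and Pvf1, a PDGF- and VEGF-related ligand (2.49), were among the 12 largest rises over 50 CPM. Orct, an organic cation transporter, had 371 and 363 CPM with dsRNA 3, against 29.8 and 31.5 CPM in the controls (3.58). AdoR, the adenosine receptor, was among the 12 largest falls, with 0.245 and 0.409 CPM with dsRNA 3, against 140 and 135 CPM in the controls (-8.65); 60.1% of its exonic bases overlap another annotated gene. On the insulin, TOR and Myc list 7 of 21 were higher and 6 lower, and the median of -0.08 turned to 0.07 with upper-quartile scaling and 0.51 with library size alone; with 1 library left out it lay between -0.13 (without dsRNA 3 replicate 2) and -0.00083 (without dsRNA 3 replicate 1). foxo rose (1.67), and ImpL2, a secreted insulin antagonist of which 61.9% of exonic bases are shared, fell (-2.34).

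**Figure D3:**
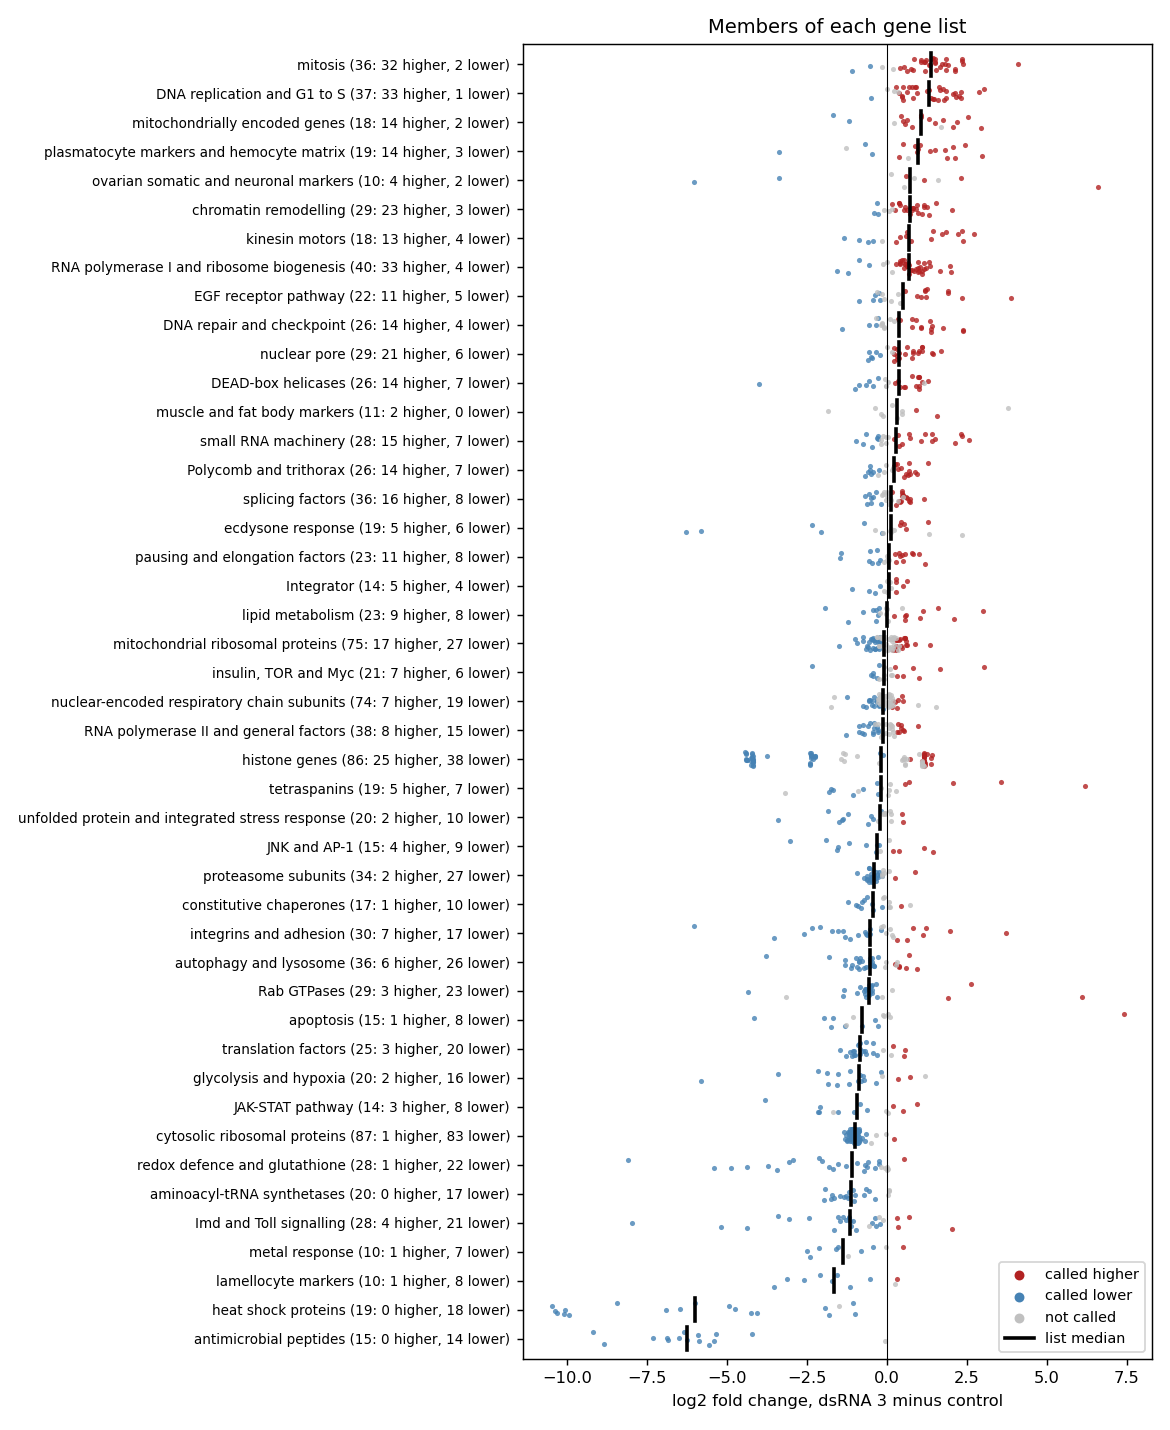
Log2 fold changes with dsRNA 3 over control (x) of the members of each gene list with at least 10 tested members (y), in red where called higher, blue where called lower and grey where not called, with the list median as a black bar. Antimicrobial peptides (-6.24) and heat shock proteins (-6.01) lie at the bottom and mitosis (1.37) and DNA replication (1.31) at the top; with library size alone the medians of constitutive chaperones, JNK, unfolded protein response, insulin, RNA polymerase II, autophagy, integrin, tetraspanin, mitochondrial ribosome, respiratory chain, proteasome, histone and Rab lists turn positive.

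Markers of the blood cell lineage were present, with exceptions. Summed over 12 plasmatocyte markers the dsRNA 3 libraries held 10853 and 10688 CPM, against 6064 and 5746 CPM in the controls. The collagen IV genes Col4a1 and vkg made up 91.0% and 90.3% of that sum with dsRNA 3, against 84.0% and 82.1% in the controls. The other 10 markers summed to 982 and 1040 CPM with dsRNA 3, against 972 and 1028 CPM in the controls. Col4a1, the collagen IV chain made by hemocytes, had 5301 and 5126 CPM with dsRNA 3, against 2752 and 2565 CPM in the controls (0.97). Its partner vkg (1.02), the matrix proteins Ppn (2.07) and Glt (2.12), the peroxidase Pxn (2.96) and the phagocytic receptor eater (0.94) were higher. He, a hemocyte surface protein, was lower (-3.36), and Hml and NimC1 were near 0 in all libraries, at most 59 counts each. The scavenger receptor crq (-0.67) lost its call with library size alone (-0.08), and the GATA factor srp (-0.46) turned to 0.13 there. On a broader list with basement membrane genes 14 of 19 were higher and 3 lower, with a median of 0.97. The PDGF- and VEGF-related receptor Pvr had 1095 and 1129 CPM with dsRNA 3, against 204 and 204 CPM in the controls (2.44), and LanB2, a laminin chain, had 844 and 877 CPM with dsRNA 3, against 251 and 238 CPM in the controls (1.81).

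Lamellocyte genes, which mark the large encapsulating blood cells, were lower in 8 of 10 cases and higher in 1, with a median of -1.65. The 3 defining markers summed to 15.2 and 17.2 CPM with dsRNA 3, against 71.6 and 70.6 CPM in the controls, nearly all from PPO3 (-2.10), with atilla at most 15 counts in any library. Integrins and adhesion genes had 17 of 30 lower and 7 higher, and the median of -0.53 turned to 0.06 with library size alone (13 higher and 11 lower). Fas3, a homophilic adhesion protein, had 0.581 and 0.634 CPM with dsRNA 3, against 40.5 and 38.9 CPM in the controls (-6.02), while the tensin gene by was higher (3.72). Crystal cell markers were at most 0.628 CPM in sum, with PPO2 at 0. Neuronal markers summed to 12.1 and 13.3 CPM with dsRNA 3, against 7.96 and 8.68 CPM in the controls, nearly all from elav. Ovarian somatic markers summed to 40.4 and 39.6 CPM with dsRNA 3, against 16.3 and 19.8 CPM in the controls, nearly all from fs(1)Yb, with tj at 0. Muscle markers were at most 1.16 CPM and fat body markers at most 0.328 CPM in sum. The part of these levels in the changes above was not tested.

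Several genes were read in one group alone. At 0 in both dsRNA 3 libraries, with at least 20 counts in each control, were 19 features. Hdc, which makes histamine, had 71 and 81 counts in the controls and was at least 75.7-fold lower, taking 3 counts over the group as the floor. The leucine-rich repeat gene kek4 had 48 and 86 counts in the controls (at least 66.8-fold lower), and the cuticle protein gene Cpr47Eb had 46 and 56 (at least 50.8-fold lower). In the other direction 25 features had at least 20 counts in each dsRNA 3 library and 0 in both controls. Tbh, which makes octopamine, had 21 and 40 counts with dsRNA 3, and the potassium channel gene eag had 24 and 42. The tetraspanin gene Tsp5D had 232 and 339 counts with dsRNA 3, against 5 and 0 in the controls, a ratio of 76.4 (95% exact interval 32.5 to 236, counting error only). The receptor gene GABA-B-R2 had 50 and 96 counts with dsRNA 3, against 3 and 0 in the controls, a ratio of 32.6 (10.9 to 160). Syn1, of the syntrophin family, had 411 and 640 counts with dsRNA 3, against 20 and 13 in the controls. The low counts of the table are uncertain, since 697 features stood at 1 count in control replicate 1 and 333 at 2.

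Some of the strongly lowered genes lay side by side on the chromosomes. Of 9068 protein-coding genes tested, 551 (6.08%) were lower past 4-fold and 348 (3.84%) higher past 4-fold. There were 13 runs of at least 4 consecutive tested genes lower past 4-fold, holding 58 genes, and 0 such runs of higher genes. One run holds Hsp70Ba, Hsp70Bbb, Hsp70Bb and Hsp70Bc (chromosome 3R, 12465453 to 12511461, BDGP6.54, median -10.34). Another holds Fdx1, Hsp67Bc, CG4456, Hsp22, CG4461 and Hsp26 (chromosome 3L, 9370195 to 9377427, median -5.28). One more holds GstE5, GstE6, GstE7, GstE8 and GstE9 (chromosome 2R, 18404605 to 18409835, median -3.45). The diptericin genes DptA and DptB lie in a run of 6 genes (2R, 18860375 to 18959500, median -6.65), and Dro, AttA and AttB in a run with jef (2R, 14739359 to 14750165, median -5.95). Not all runs were families of stress or immune genes: one holds Mdr49, CG44251, CG44250 and CG13321 (2R, 12940323 to 12955712, median -3.77). Members of a gene family share sequence, and some of their reads may be divided between copies.

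The share called also varied with level and feature class. Of 153 protein-coding genes over 1000 CPM, 137 (89.5%) were lower and 10 (6.536%) higher, and without the ribosomal proteins 60 of 76 were lower. A gene high in the controls alone can enter this class, so the class was also set by the dsRNA 3 mean: of 120 genes 102 were then lower and 12 higher, and without the ribosomal proteins 29 of 47 were lower and 12 higher. That class was added after the data were seen. With library size alone 114 of the 153 were lower and 24 higher. Between 1 and 10 CPM, 365 of 1345 genes (27.1%) were lower and 480 (35.7%) higher. Of 4 classes of equal size by exonic length, the longest had 37.4% higher and 32.3% lower, and the shortest had 21.8% higher and 38.2% lower. Chromosome 4, small and largely heterochromatic, had 26 of 66 protein-coding genes higher (39.4%) and 10 lower (15.2%), against 28.9% higher and 36.9% lower on the other chromosomes. Its higher genes included zfh2, a zinc finger and homeobox factor (1.59), the semaphorin receptor PlexB (1.46) and the ephrin receptor Eph (1.29). Its lower genes included Rad23 (-0.94) and RpS3A (-0.66). With library size alone 46 of the 66 were higher and 1 lower.

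Transcripts of the mitochondrial genome were higher in 14 of 18 cases and lower in 2, with a median of 1.06. Without dsRNA 3 replicate 1 the median was 0.68 and 12 were higher, and without control replicate 1 it was 1.10 and 10 were higher. mt:ND1, a subunit of complex I, had 95.01 and 83.7 CPM with dsRNA 3, against 29.9 and 33.3 CPM in the controls (1.497). mt:ND5 had 231 and 188 CPM with dsRNA 3, against 109 and 91.7 CPM in the controls (1.07). The ribosomal RNA mt:lrRNA went against them, with 2812 and 2013 CPM with dsRNA 3, against 5822 and 5199 CPM in the controls (-1.19), as did mt:srRNA (-1.70). In poly(A) libraries the capture of such RNAs depends on their tails. The same limit holds for small nuclear RNAs, of which 9 of 11 tested were lower and 0 higher; none exceeded 3.11 CPM as a group mean. snRNA:7SK, which sequesters the pause-release kinase, averaged 0.431 CPM with dsRNA 3, against 2.66 CPM in the controls (-2.66, adjusted p = 0.00327). Of 90 small nucleolar RNAs 26 were higher and 2 lower. Histone genes, mostly near-identical copies without a poly(A) tail, had 25 of 86 higher and 38 lower. Their median of -0.18 turned to 1.17 where at least 1 CPM was required and to 0.41 with library size alone (37 higher and 36 lower), and was -0.12 without dsRNA 3 replicate 2. The variant His2Av, a single-copy gene with a tail, was higher (0.73).

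Copies of transposable elements were more often higher than lower. Of 1376 tested copies 568 (41.3%) were higher and 67 (4.87%) lower, with a median of 0.81. With library size alone 818 were higher and 50 lower. Copies that lay within protein-coding genes had 289 of 683 higher (42.3%), and copies outside them 279 of 693 (40.3%). Copies of a family are near-identical and their reads may be divided between them, so counts were also summed per family. Of 143 entries so tested 83 were higher and 7 lower. Not every entry is a family: a copy listed under an RR number alone, with no family name, was kept as an entry of its own. Names such as F and F-element were kept apart. The retrotransposon 1731 summed to 3514 and 3400 CPM with dsRNA 3, against 633 and 762 CPM in the controls (2.31, SE 0.09, adjusted p = 3.67e-07). The family 3S18 summed to 6364 and 6809 CPM with dsRNA 3, against 1550 and 1823 CPM in the controls (1.97). The family blood summed to 5228 and 5443 CPM with dsRNA 3, against 1619 and 2067 CPM in the controls (1.53), and all 27 of its tested copies were higher. Of the entries over 100 CPM, the family copia and the single copy RR51007 were lower. The family copia summed to 27647 and 24135 CPM with dsRNA 3, against 50375 and 51042 CPM in the controls (-0.97, SE 0.08). Of its 34 tested copies 31 were lower and 0 higher, and with library size alone 31 were lower and 1 higher. RR51007, with 1 tested copy, had 812 and 709.8 CPM with dsRNA 3, against 1507 and 1534.5 CPM in the controls (-0.999, SE 0.07). The families pogo (-0.11) and F (0.01) were not called.

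**Figure D4:**
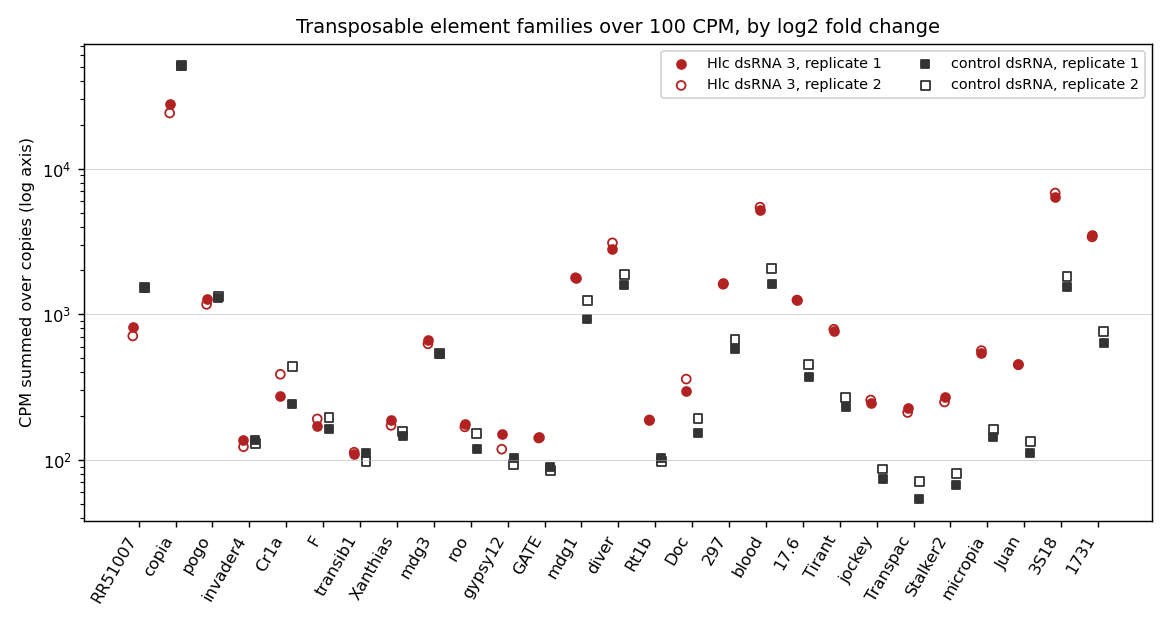
CPM summed over the copies of each transposable element family, or of a copy with no family name, in each dsRNA 3 library (red circles) and control library (dark squares). Entries with a mean of at least 100 CPM are shown on a log axis, ordered by log2 fold change. From Xanthias on to the right the dsRNA 3 libraries lie above both controls, up to 1731 at 2.31, while copia (-0.97) and RR51007 (-0.999) lie below.

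The dsRNA 2 libraries, which share the controls, gave these values: 6852 features (60.7%) were called against control, 3431 higher (30.4%) and 3421 lower (30.3%). Hsp70Bc had a log2 fold change of -10.49 with dsRNA 3 and -10.33 with dsRNA 2. AttB had -6.33 with dsRNA 3 and -6.17 with dsRNA 2, and stg had 4.09 with dsRNA 3 and 4.05 with dsRNA 2. The direct test of dsRNA 3 against dsRNA 2 called 9 of 11293 features (0.0797%), 2 higher (0.0177%) and 7 lower (0.062%) with dsRNA 3. At an unadjusted p under 0.05 it gave 2298 (20.3%), DESeq2 called 1228 and limma-voom 327, so the number that differ is not settled by these libraries. Without dsRNA 3 replicate 1 the edgeR test called 148, and without dsRNA 3 replicate 2, control replicate 1 or control replicate 2 it called 1. Hlc itself was not called between the dsRNAs (0.14, SE 0.09, adjusted p = 0.46).

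The clearest difference was prtp, which codes for pretaporter, a ligand of the engulfment receptor Draper. It had 190 and 190 CPM with dsRNA 3, against 80.8 and 84.8 CPM with dsRNA 2, a log2 difference of 1.20 (SE 0.06, adjusted p = 0.0018). The controls had 221 and 204 CPM, so the dsRNA 3 libraries lay near them; the log2 fold change of dsRNA 3 over control was -0.16, turned to 0.43 with library size alone, and its adjusted p of 0.042 was above 0.05 under 10 further alternatives. The difference between the dsRNAs was called in all 15 alternatives. CG10814 had 0 and 0 counts with dsRNA 3, against 46 and 38 with dsRNA 2, and 107 and 161 in the controls. edin, a peptide gene of the immune response, averaged 121 CPM with dsRNA 3, against 181 CPM with dsRNA 2 (-0.58), and 4971 CPM in the controls. JhI-26 averaged 27.0 CPM with dsRNA 3, against 39.4 CPM with dsRNA 2 (-0.55), and 334 CPM in the controls; 70.5% of its exonic bases are shared. The others were CG18135 (0.62), CG3168 (-0.97), CG32625 (-0.82), CG15784 (-0.60) and 1 copy of the R2 element (-0.80), named after their values were seen. Each of these 8 lost its call in at least 8 alternatives. Across lists, the median of dsRNA 3 minus dsRNA 2 ran from -0.43 for antimicrobial peptides, of which edin was called, to 0.18 for glycolysis and hypoxia, against -0.0014 for all features. It was -0.33 for histone genes, -0.32 for mitochondrial ribosomal proteins, -0.25 for respiratory chain subunits and -0.23 for RNA polymerase I and ribosome biogenesis, with 0 members called in each.

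**Figure D5:**
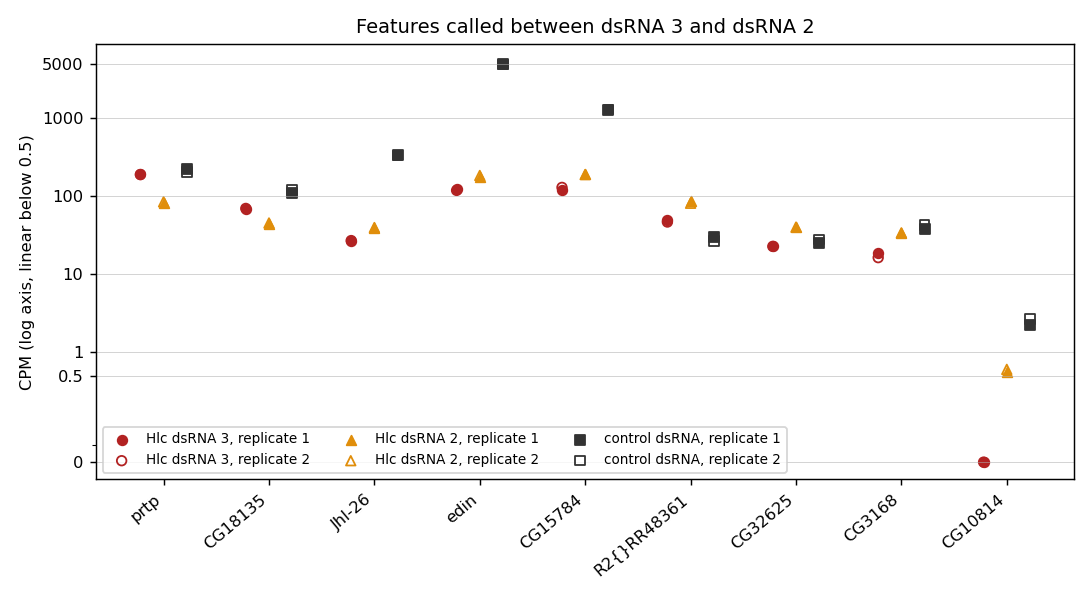
CPM of the 9 features called between the dsRNAs in the dsRNA 3 (red circles), dsRNA 2 (orange triangles) and control libraries (dark squares), on a log axis that is linear below 0.5. prtp with dsRNA 3, at 190 CPM, lies beside the controls and above dsRNA 2, and CG10814 is at 0 with dsRNA 3.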

How the data were processed

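Per the labels' protocols, TruSeq RNA kits turned poly(A) RNA of S2 cells into 6 libraries. Raw counts, in whole numbers per annotated feature and with no normalization, are what the authors deposited. Trimmomatic 0.36, TopHat2 2.1.0, StringTie 2.1.7 and build BDGP6 are named, per the submitters' processing notes. How reads were counted, with which strand setting and with what rule for multi-mapping, is not given in the sources used here, so reads of near-identical copies, overlapping genes and antisense partners are uncertain in their division.

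Columns were assigned by name. Positions, exonic lengths and classes come from the Ensembl annotation of BDGP6.54, which matched 99.7% of features. In R 4.3.3, edgeR 4.0.16 was used: filterByExpr chose the features, TMM scaled the libraries, and its quasi-likelihood test compared the groups. All 6 libraries entered 1 fit with a term per group, leaving 3 residual degrees of freedom before moderation. Called features had an adjusted p (Benjamini-Hochberg, over 11293 features) under 0.05. The SE of a log2 fold change is its size divided by the square root of F, a scale implied by the test. Data were simulated for dsRNA 3 minus control with 10862 features, of which 100 changed 2-fold and 100 changed 4-fold, up and down equally. Features with few counts were not among those changed. In this setting 81% of the 2-fold and 96% of the 4-fold changes were recovered, with 17 false calls. In the real data 61.6% of features were called and features with few counts were tested, so these rates do not carry over. The spread between replicates exceeded counting noise, with chi-square values per degree of freedom of 37.9 with dsRNA 3, 31.6 with dsRNA 2 and 27.4 in the controls. Intervals and floors cover counting error only.

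The comparison, the 46 gene lists and the rules were chosen with earlier results of these data known. Named genes are Hlc and MtnA; the 12 largest called rises and falls of at least 50 CPM and the 5 largest each way below that, from 50 counts; up to 8 features each way called between the dsRNAs, from 50 counts; from each list the 3 strongest by test; the 5 highest features per group; and cell type markers. For the largest changes the groups had to lie apart, and symbols that are CG or CR numbers, unnamed noncoding RNAs and element copies are passed over. Genes named as neighbours, by chromosome, as read in one group alone, or as transposable element families were chosen after their values were seen. Alternatives were other scalings and filters, DESeq2 1.42.0, limma-voom 3.58.1, a replicate block, a fit of 2 groups, and each library left out. The family sums of transposable elements and the classes under other scalings or set by 1 group's level were added after the data were seen. A planned search for promoter motifs was not run, as no sequence was used here.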

Additional observations from a re-analysis of the deposited data

Results flagged for a closer look

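Between the dsRNAs, 9 features were called by the direct test of dsRNA 3 against dsRNA 2, in edgeR's fit over all features. The 3 genes among them with a symbol other than a CG number are given here. prtp was higher by 1.20 on the log2 scale with dsRNA 3, with both dsRNA 3 libraries above both dsRNA 2 libraries. edin differed by -0.577 and JhI-26 by -0.547, each lower in both dsRNA 3 libraries than in both dsRNA 2 libraries. prtp was called in all 15 alternatives, edin in 5 and JhI-26 in 7. Groups of 2 libraries are too small for a check of single outlying libraries.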

How the results depend on the processing

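For dsRNA 3 against control, the counts of calls stayed within 1.5 times of 6954 under every alternative, except that library size alone gave 6080 higher and 1710 lower; with 1 library left out they ran from 6144 to 6661. Hlc kept its direction and call in all alternatives.

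Replicate numbers were not taken to pair the libraries: deviations from the group means correlated at 0.14 between dsRNA 3 and control, -0.0901 between dsRNA 2 and control and -0.179 between the dsRNAs. The replicate block gave 6683 calls, 3224 higher and 3459 lower, against control, and 1 higher and 0 lower (1 in all) between the dsRNAs.

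Between the dsRNAs the 9 calls (2 higher, 7 lower) became 107 (40 and 67) with the 1 CPM filter, 1228 (581 and 647) with DESeq2, 327 (119 and 208) with limma-voom and 34 (8 and 26) with no filter. They became 1 (1 and 0) with library size alone and with only the groups compared. With 1 library left out they ran from 1 to 148, higher from 1 to 26 and lower from 0 to 122; the highest came without dsRNA 3 replicate 1, and 1 call was left without dsRNA 3 replicate 2 or either control. A group left with 1 library was assumed to vary like the others. The cause was not tested.

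Over named genes against control, 2714 values kept direction and side, 24 lost the call, 2 gained it and 6 reversed. With library size alone these were prtp (0.43), srp (0.13), up (0.20) and SdhB (0.028), and Mhc was at -0.46 without dsRNA 3 replicate 1 and -0.16 without control replicate 2.

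List medians that turned positive with library size alone were those of constitutive chaperones (0.15), JNK (0.29), unfolded protein response (0.36), insulin (0.51), RNA polymerase II (0.45), autophagy (0.056), integrins (0.064), tetraspanins (0.40), mitochondrial ribosomal proteins (0.51), respiratory chain (0.47), proteasome (0.19), histones (0.41) and Rabs (0.039). With upper-quartile scaling insulin (0.065), RNA polymerase II (0.014), mitochondrial ribosomal proteins (0.068) and respiratory chain (0.030) turned, and with the 1 CPM filter tetraspanins (0.032) and histones (1.17). Medians near 0 crossed it with 1 library left out: lipids ran from -0.016 to 0.018, ecdysone from -0.0095 to 0.27, muscle and fat body from -0.078 to 0.75, tetraspanins from -0.22 to 0.0056 and mitochondrial ribosomal proteins from -0.15 to 0.034.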

Other observations

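The direction of some lists depended on the scaling. On the lipid list 9 of 23 genes were higher and 8 lower, with a median of 0.0056, whereas 20 were higher and 3 lower with library size alone (median 0.60). whd, the carnitine transferase that brings fatty acids into mitochondria, had 33.2 and 36.3 CPM with dsRNA 3, against 4.02 and 4.71 CPM in the controls (2.99), and the triglyceride lipase bmm was higher (1.58), whereas the lipase gene Lip4 was lower (-1.93). On the ecdysone list 5 of 19 were higher and 6 lower, with a median of 0.11; with library size alone 9 were higher and 4 lower (median 0.70). Summed over the list, counts came to 1014 CPM with dsRNA 3, against 9005 CPM in the controls, and its lowest member was at -6.27. Sox14, an ecdysone-induced transcription factor, was lower (-2.06), and the early gene Eip74EF was higher (1.28).

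Tetraspanins had 5 of 19 higher and 7 lower, with a median of -0.19 that turned to 0.40 with library size alone (11 higher and 5 lower) and was 0.0056 without control replicate 2. Tsp42Ed was lower (-1.70) and Tsp96F higher (2.06). On a list of ovarian and neuronal genes 4 of 10 were higher and 2 lower, with a median of 0.72. bab2 was lower (-3.39), and nSyb had 14 and 13 counts with dsRNA 3 and 0 in the controls. It also had 0 counts in both dsRNA 2 libraries, and its call against control was lost with DESeq2, with no filter and with the replicate block. On a list of muscle and fat body genes 2 of 11 were higher, namely sls (1.56) and Mef2 (0.89). The list median was 0.31, and it was -0.078 without dsRNA 3 replicate 1, 0.75 without control replicate 1 and 0.053 without control replicate 2. Of crystal cell genes 2 were tested, and Naprt was lower (-1.74). Eip74EF, Tsp96F and Naprt were chosen after their values were seen.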
